A study of Mus musculus with 2 samples.

Results

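The mitochondrial carriers of the Slc25a family were examined in the mouse mammary gland 1 day after weaning and at weaning. A member was any probe set whose single gene symbol in the platform annotation starts with Slc25a. The rule found 93 of the 45101 probe sets of the array, and they stood for 44 of 18193 named genes. A gene was represented by its probe set with the highest mean signal, and it was called measured when its brighter array lay above 77.7 signal units, the median of all signals without the controls. By this rule 39 of the 44 genes were measured.

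Carrier proteins of this family sit mostly in the inner mitochondrial membrane and exchange metabolites between the matrix and the cytosol. They move ADP and ATP, phosphate, citrate, malate, amino acids, acylcarnitines, iron and vitamin-derived cofactors, so that respiration, urea and haem synthesis and cytosolic lipid synthesis can draw on both compartments. In the lactating gland the export of citrate is of interest because citrate is a constituent of milk and because its cleavage in the cytosol gives acetyl-CoA for milk fat.

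The day 1 group was 1 pool of mammary gland RNA from 5 female CD1 mice killed 1 day after their pups were taken away. The day 0 group was 1 pool from 5 female CD1 mice at the time of weaning, which took place at day 10 of lactation. In both groups the litters had been set to 6 pups, the mice were bought at 6 weeks of age, and no genotype or drug separated the groups. Every pool went onto 1 Mouse Genome 430 2.0 array of Affymetrix. The spread between mice could thus not be seen, no test between days was possible, and every difference below is between 2 arrays with no replicate check.

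The signals are MAS 5 intensities on a linear scale, as deposited by the authors, and each ratio is that of day 1 to day 0 on the log2 scale, taken after values below 77.7 were raised to that floor. A gene at this floor on 1 array has only a bound. Both arrays had a trimmed mean of 250, whereas their median signals were 60.1 on day 1 and 94.2 on day 0. Hybridisation controls are foreign transcripts spiked into each sample. The 15 that were not among the brightest (under 50% of an array's top signal) had a median log2 ratio of -1.16 (range -2.14 to -0.50). Scaling on them thus raises the ratios of genes above the floor on both arrays. Under that scaling the median over all measured genes moved to 0.91, against -0.12 as deposited. The 3' to 5' signal ratio of beta-actin was 1.51 on day 1 and 2.5 on day 0. That of Gapdh was 1.48 on day 1 and 1.52 on day 0. For pyruvate carboxylase it was 7.86 on day 1 and 13.5 on day 0. The arrays thus differed in this measure for beta-actin and pyruvate carboxylase and hardly for Gapdh. Within a gene, the log2 ratios of its probe sets varied with an SD of 0.56, pooled over 3943 genes. The 5 secretory epithelium markers, all milk protein genes, were measured on both arrays, and their median log2 ratio was -1.26 as deposited, 0 after quantile normalization and -0.10 under hybridisation control scaling. Luminal epithelium markers were higher on day 1 (median 2.83, with 8 of 10 genes past 2-fold upward and 1 downward). Whole glands were used, so fewer cells of a type and less RNA per cell cannot be told apart, and the part of such shifts in the ratios below was not tested.

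As deposited, carriers with a lower signal on day 1 were more numerous than carriers with a higher one (25 against 14 of 39), as were all measured genes (7505 against 5732 of 13239). Of the 39 measured genes, 9 (23.1%) were at least 2-fold lower, where the background over all 13239 measured genes was 13.3%. The 9 were Slc25a29, Slc25a1, Slc25a53, Slc25a33, Slc25a10, Slc25a5, Slc25a35, Slc25a38 and Slc25a37. At least 2-fold higher were 4 genes (10.3%), Slc25a24, Slc25a20, Slc25a51 and Slc25a30, and this share was close to the background of 10.4%. The other 26 genes had ratios under 2-fold once the floor was set. Of these, 4 are bounds (Slc25a18, Slc25a27, Slc25a34 and Slc25a48), so their differences may be larger. At 1.5-fold, 16 carriers were lower (background 27.2%) and 7 higher (background 20.4%), and at 3-fold 4 were lower (background 4.33%) and 1 higher (background 3.85%). The median log2 ratio of the 39 genes was -0.52, against -0.12 over all measured genes, and it was lower than that of all genes also under hybridisation control scaling, where it was above 0 (0.65 against 0.91). After median centring 8 carriers were past 2-fold downward (background 11.7%) and 6 upward (background 12.6%). Under hybridisation control scaling there was 1 such carrier downward (background 3.25%) and 14 upward (background 46.6%). With the hybridisation controls 7 of the 9 lower genes kept a ratio below 0, and Slc25a37 and Slc25a38 were just above 0.

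**Figure D1:**
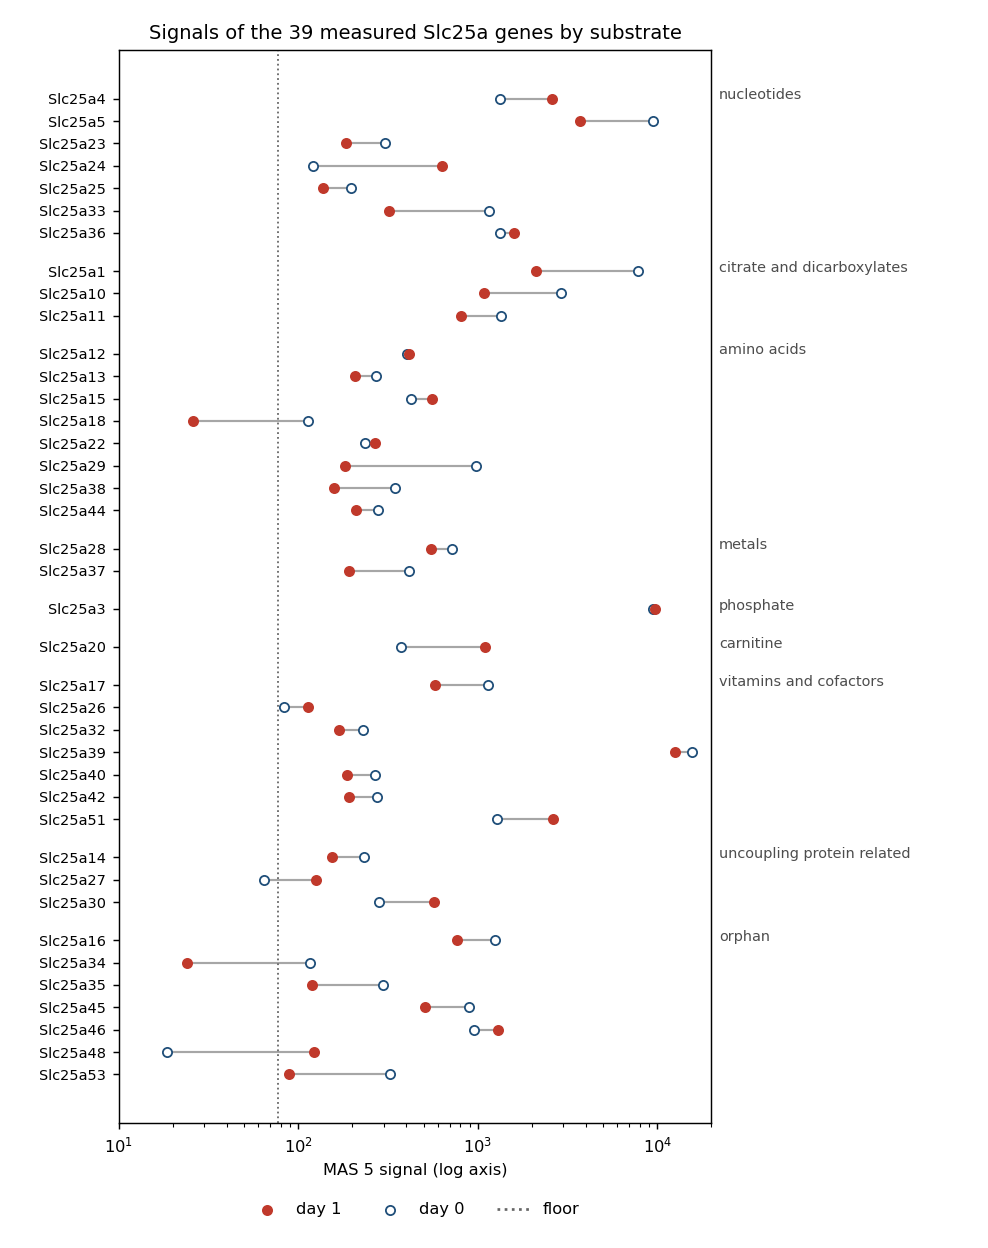
MAS 5 signal on a log axis (horizontal) of the 39 measured Slc25a genes (vertical, grouped by substrate), 1 array a day. Filled points are day 1, open points are day 0 and the dotted line is the floor of 77.7. All 3 citrate and dicarboxylate carriers have their day 1 point to the left, whereas Slc25a4, Slc25a20, Slc25a24 and Slc25a51 have it to the right.

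Counted by probe set, 75 of the 93 were measured. At least 2-fold lower were 21 (28%, background 12.6% of 22699 measured probe sets) and at least 2-fold higher 7 (9.33%, background 9.86%). Probe sets of a gene share its transcript, and 8 of the 93 belong to Slc25a5 alone. Among 19 genes with several measured probe sets, 13 had all of them on the same side of 0. The rest had probe sets on both sides of 0. Only in Slc25a12 did one lie at least 0.5 log2 from 0 on the side opposite to the probe set used. That one was a bound of -0.53, and the probe set used was itself near 0 (0.04).

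The carriers of nucleotides did not move one way, and both ADP/ATP carriers had opposite ratios. These proteins bring ADP into the matrix in exchange for newly made ATP. Slc25a5, which encodes adenine nucleotide translocase 2, the form found in many tissues and in dividing cells, had a signal of 3689 on day 1 against 9438.5 on day 0, a log2 ratio of -1.36 (2.56-fold lower). All 8 of its probe sets were lower on day 1, with log2 ratios of -2.21 to -1.07. Slc25a4, which encodes adenine nucleotide translocase 1, the main form of heart and skeletal muscle, had 2584.5 on day 1 against 1332 on day 0 and thus lay just inside the 2-fold line (1.94-fold higher, log2 ratio 0.96). Its other measured probe sets had log2 ratios of 1.00 and 1.19, so all 3 were higher on day 1. Across the probe sets the ranges of the paralogs did not overlap in ratio, and the directions were the same under each scaling: -0.19 for Slc25a5 and 2.12 for Slc25a4 after hybridisation control scaling. Of the Slc25a5 probe sets, 6 carry the suffix that marks probes able to bind other transcripts, and RefSeq lists a Slc25a5 pseudogene, so part of their signal is uncertain. The 2 without that suffix were also lower, at -1.49 and -2.21 log2. Of the 3 measured Slc25a4 probe sets 1 carries it, the one at 1.19. Without all probe sets shared between transcripts Slc25a4 had no value, since its remaining probe set was under the floor on both arrays.

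Skeletal muscle lies next to some mammary glands and could carry Slc25a4. All 11 muscle markers were measured, none was at the floor, and their summed signal was 20069 on day 1 and 19332 on day 0. Their median log2 ratio was 0.29, with 1 gene at least 2-fold higher, the myosin gene Myh2 (log2 ratio 1.19), and 0 lower. Their part in the Slc25a4 ratio was not tested. Myh2 was the one marker with a higher ratio than Slc25a4.

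Promoters of this pair are shown because the paralogs had opposite ratios on the same arrays. RefSeq sequences of GRCm38.p6 from 250 bases before to 50 after a gene's start were matched by symbol for 34 of the 44 genes. Capitals mark matches, on either strand, to the GC box GGGCGG, the CCAAT box CCAAT, the E-box CACGTG, an ETS site CCGGAAGT, an NRF1 site, a sterol regulatory element TCACNCCAC, a TATA box TATAAA and an ERR site TCAAGGTCA.
Slc25a4 (chr8:46211013-46211312, minus strand): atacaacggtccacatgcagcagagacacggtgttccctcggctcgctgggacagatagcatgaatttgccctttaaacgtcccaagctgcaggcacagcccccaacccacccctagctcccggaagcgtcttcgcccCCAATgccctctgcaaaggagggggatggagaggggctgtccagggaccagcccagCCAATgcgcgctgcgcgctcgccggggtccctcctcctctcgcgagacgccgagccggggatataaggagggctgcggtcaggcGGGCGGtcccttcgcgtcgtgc
Slc25a5 (chrX:36795347-36795646, plus strand): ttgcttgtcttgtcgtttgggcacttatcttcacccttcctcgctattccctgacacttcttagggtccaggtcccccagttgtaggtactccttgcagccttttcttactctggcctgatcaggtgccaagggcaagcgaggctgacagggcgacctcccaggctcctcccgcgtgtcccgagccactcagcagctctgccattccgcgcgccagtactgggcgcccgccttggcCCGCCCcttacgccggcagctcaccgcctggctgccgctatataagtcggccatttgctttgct
The Slc25a4 window held 2 CCAAT boxes and 1 GC box, and that of Slc25a5 held 1 GC box. No other listed motif matched in either, and no matches overlapped. GC boxes were found in 37 of the 43 promoters listed for members (86.0%), against 46.2% of 21262 promoters of protein-coding genes and 35.7% of all 32851. The median GC content was 59.7% in member promoters, 56.3% in those of protein-coding genes and 52.7% in all. CCAAT boxes were in 48.8% of member promoters, against 38.2% of protein-coding ones and 37.4% of all, and E-boxes in 18.6%, against 7.84% and 7.15%. The other motifs matched 0 or 1 member promoters, with shares over all promoters of 3.89% for the ETS site, 0.971% for NRF1, 1.24% for the sterol element, 13.6% for the TATA box and 0.423% for the ERR site. A match is a description of these letters only.

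Calcium-regulated carriers exchange ATP-Mg for phosphate and so set the adenine nucleotide content of the matrix. Among them Slc25a24 had the highest ratio of any measured member once the floor was set, with 632.4 on day 1 against 120.3 on day 0, a log2 ratio of 2.39 (5.26-fold higher). Its other probe set had 85.7 on day 1 and 7.6 on day 0, which gives a bound of at least 0.14 log2. The day 0 signal of the brighter probe set was also not far above the floor, and the ratio was 1.34 with a floor at the 75th percentile and 1.27 as the mean of both probe sets. Its rank rests on the floor too, since Slc25a48, a bound here, was at 2.45 with a floor at the 25th percentile and Slc25a20 ranked first with one at the 75th. Slc25a23, of the same type, had 184.8 on day 1 against 306.5 on day 0 (log2 ratio -0.73), and Slc25a25 had 138 on day 1 against 197.7 on day 0 (-0.52). The measured carriers of this type thus lay on both sides of 0, with Slc25a24 alone past 2-fold. Slc25a41, a further relative, was under the floor on both arrays. Slc25a54, next to Slc25a24 on chromosome 3, was also not measured, with 3.2 on day 1 and 72.5 on day 0.

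Pyrimidine nucleotides, used for mitochondrial DNA and RNA, enter the matrix through Slc25a33 and Slc25a36. Slc25a33 had 321.7 on day 1 against 1152.6 on day 0, a log2 ratio of -1.84 (3.58-fold lower). Slc25a36 had 1596.7 on day 1 against 1331.2 on day 0, a log2 ratio of 0.26, and its dimmer probe sets had -0.17 and -0.30. Slc25a33 was thus far lower and Slc25a36 near 0, although both carry the same class of substrate. In all, 7 of 9 nucleotide carriers were measured. Of these, 1 was past 2-fold upward (background 10.4%) and 2 downward (background 13.3%). Their median log2 ratio was -0.52, or 0.64 under hybridisation control scaling. The testis form Slc25a31 was under the floor on both arrays.

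**Figure D2:**
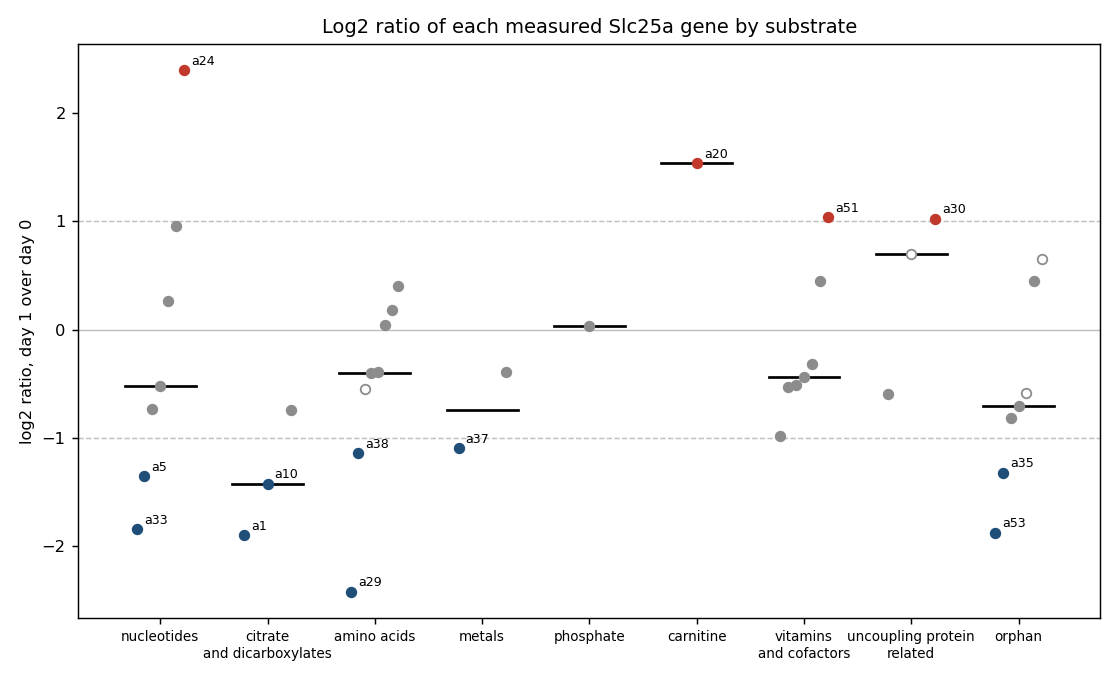
Log2 ratio of day 1 over day 0 (vertical) of each measured Slc25a gene by substrate group (horizontal). Red points lie past 2-fold upward, blue points past 2-fold downward, open points are bounds, bars are group medians, dashed lines mark 2-fold, and names are given without Slc25. The citrate and dicarboxylate group lies wholly below 0, whereas nucleotide carriers reach from -1.84 to 2.39.

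All 3 measured carriers of citrate and dicarboxylates were lower on day 1. Slc25a1, the citrate carrier, which exports citrate for cytosolic acetyl-CoA, had a signal of 2097.9 on day 1 against 7829.8 on day 0, a log2 ratio of -1.90 (3.73-fold lower). Slc25a10, the dicarboxylate carrier, which exchanges malate or succinate for phosphate, had 1088.1 on day 1 against 2920.2 on day 0 (log2 ratio -1.42, 2.68-fold lower). Its second probe set had 314.8 on day 1 and 876.4 on day 0 and a log2 ratio of -1.48, so the pair of probe sets gave nearly the same value. Slc25a11, the oxoglutarate carrier, which brings 2-oxoglutarate out in exchange for malate, had 804.3 on day 1 against 1343.9 on day 0 (-0.74, 1.67-fold lower). The median of the group was -1.42, against -0.12 over all measured genes, and the group median stayed below 0 under each scaling, at -0.26 under hybridisation control scaling. There Slc25a11 was above 0 (0.42), and Slc25a1 and Slc25a10 were at -0.74 and -0.26.

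The promoters of the citrate and dicarboxylate carriers are given because these genes had the lower ratios of the group. Capitals mark the same motifs.
Slc25a1 (chr16:17928170-17928469, minus strand): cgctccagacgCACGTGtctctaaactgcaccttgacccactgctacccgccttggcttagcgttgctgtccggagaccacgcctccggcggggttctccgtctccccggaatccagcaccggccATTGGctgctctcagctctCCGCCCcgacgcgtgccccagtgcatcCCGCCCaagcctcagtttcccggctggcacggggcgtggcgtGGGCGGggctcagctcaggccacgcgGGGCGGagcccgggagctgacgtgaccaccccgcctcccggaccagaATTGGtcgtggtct
Slc25a10 (chr11:120491587-120491886, plus strand): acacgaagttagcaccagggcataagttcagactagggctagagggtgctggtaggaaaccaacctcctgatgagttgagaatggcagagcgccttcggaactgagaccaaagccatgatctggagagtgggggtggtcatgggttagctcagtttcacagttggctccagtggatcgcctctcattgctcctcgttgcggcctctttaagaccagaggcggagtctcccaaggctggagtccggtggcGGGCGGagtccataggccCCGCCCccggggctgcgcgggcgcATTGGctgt
The Slc25a1 window held 4 GC boxes, 2 CCAAT boxes and 1 E-box. The Slc25a10 window held 2 GC boxes and 1 CCAAT box. Neither held the listed form of the sterol regulatory element, which says only that these letters are not in these windows. All 7 of the lower carrier genes with a listed promoter held a GC box, as did all 3 of the higher ones. Over all members with a listed promoter it was 29 of 34 genes, so the box was common in the family whatever the ratio.

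Genes that work with these carriers on citrate and malate were given as a list of 12, of which 11 were measured. Past 2-fold lay 5 genes with a lower and 2 with a higher signal, against 13.3% and 10.4% of all measured genes. Under hybridisation control scaling 2 were lower and 5 higher (background 3.25% and 46.6%), and without shared probe sets 6 and 0. The median log2 ratio was -0.996, or 0.17 under hybridisation control scaling. Acly, ATP citrate lyase, which cleaves the exported citrate, had 3860.1 on day 1 against 31568.2 on day 0 (log2 ratio -3.03), and its 5 probe sets ranged from -3.30 to -0.63. Cs, citrate synthase, had 4288.3 on day 1 against 9114.8 on day 0 (-1.09), with probe sets from -1.26 to -0.95, and was at 0.08 under hybridisation control scaling. The enzyme that cleaves citrate in the cytosol and the one that makes it in the matrix were thus both lower, Acly by more than Cs on these arrays. Pcx, pyruvate carboxylase, which makes oxaloacetate for citrate, had 1422.5 on day 1 against 6145.7 on day 0 (-2.11). Mdh1, cytosolic malate dehydrogenase, had 4996.4 on day 1 against 17404.6 on day 0 (-1.80), with 4 probe sets from -2.47 to -1.17. Got1, cytosolic aspartate aminotransferase, had 403.6 on day 1 against 3170.6 on day 0 (-2.97). Their matrix counterparts were near or above 0, with log2 ratios of -0.12 for Mdh2 and 0.53 for Got2, although the 4 Got2 probe sets reached from -0.74 to 0.53. Idh1 and Idh2, which oxidise isocitrate in cytosol and matrix, were higher, at 1.42 and 1.57 log2, but the second Idh2 probe set had -1.12. Me1, malic enzyme, which makes NADPH for fat synthesis, lay just inside the 2-fold line at -0.996 (1.99-fold lower). Mpc1, a subunit of the mitochondrial pyruvate carrier, which is not of the Slc25a family, had 5543.1 on day 1 against 12886.7 on day 0 (-1.22).

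**Figure D3:**
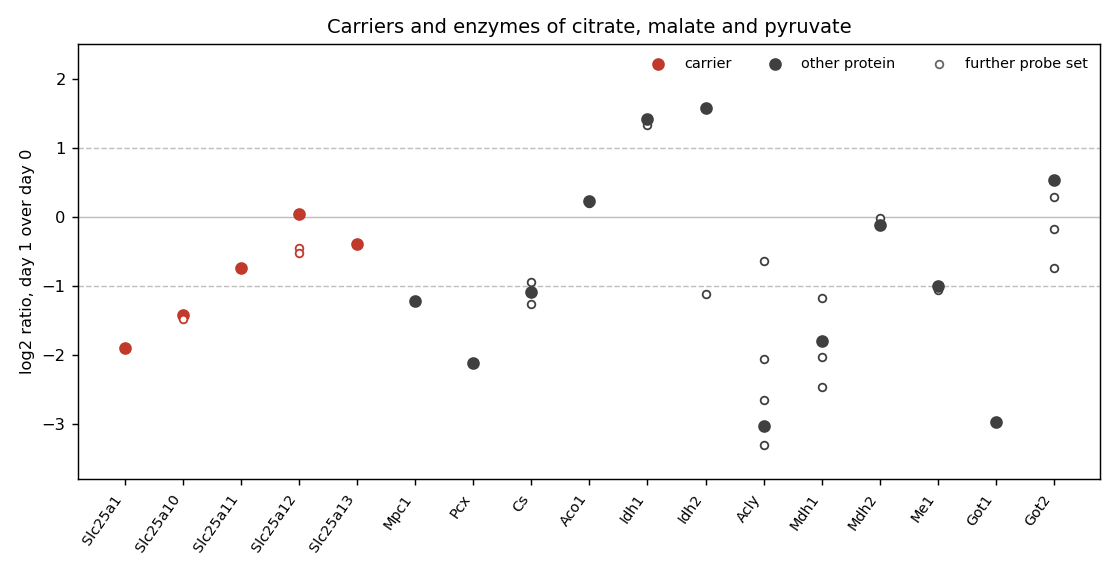
Log2 ratio of day 1 over day 0 (vertical) of carriers (red) and of other proteins of citrate, malate and pyruvate (grey, horizontal by gene). Large points are the probe sets used, small open points further measured probe sets, and dashed lines mark 2-fold. Acly and Got1 lie near -3, Slc25a1 at -1.90, and the probe sets of Idh2 on opposite sides of 0.

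Of 8 measured carriers of amino acids, 2 were at least 2-fold lower (background 13.3%) and 0 higher (background 10.4%). The other 6 had ratios within 2-fold once the floor was set, as did 10101 of all 13239 measured genes. Both counts include bounds, among the carriers that of Slc25a18, whose difference may be larger. Slc25a29, which carries the basic amino acids arginine and lysine, had 182.3 on day 1 against 975 on day 0, a log2 ratio of -2.42 (5.35-fold lower), and this was the lowest ratio of any measured member as deposited. All 5 of its probe sets were lower, with ratios of -3.73 to -1.73, of which the -3.73 and -2.61 are bounds from day 1 signals of 47.2 and 25.7. It was the only carrier still at least 2-fold lower under hybridisation control scaling (-1.26). Slc25a47, its neighbour on chromosome 12, was not measured.

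Slc25a38, which brings glycine into the matrix for the first step of haem synthesis, had 157.7 on day 1 against 347.6 on day 0 (log2 ratio -1.14, 2.20-fold lower). Its ratio was 0.02 under hybridisation control scaling and -0.48 with a floor at the 75th percentile. The aspartate and glutamate carriers of the malate and aspartate shuttle were within 2-fold. Slc25a12 had 416.2 on day 1 and 405.2 on day 0 (0.04), with dimmer probe sets at bounds of -0.46 and -0.53. Slc25a13 had 206.9 on day 1 and 271.6 on day 0 (-0.39). The shuttle also uses Slc25a11 (-0.74, above), so its carriers were each within 2-fold, whereas its cytosolic enzymes Mdh1 and Got1 were at least 2-fold lower. Slc25a15, the ornithine carrier of the urea cycle, had a log2 ratio of 0.40, and both its probe sets were above 0. The glutamate carrier Slc25a22 was at 0.18 and Slc25a44, a carrier of branched-chain amino acids, at -0.40, with probe sets from -0.66 to 0.18. Slc25a18, a second glutamate carrier, had 26.1 on day 1 and 113.5 on day 0, which gives only a bound of -0.55 or lower. The ornithine carrier paralog Slc25a2 was under the floor on both arrays. The median of the group was -0.40, or 0.77 under hybridisation control scaling.

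**Figure D4:**
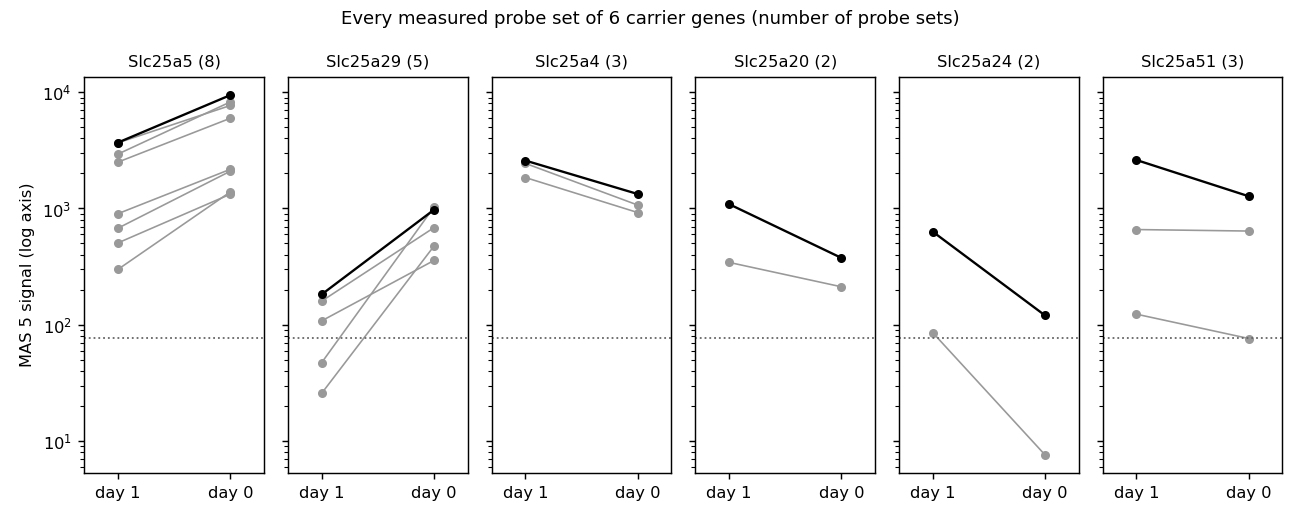
MAS 5 signal on a log axis (vertical) of each measured probe set of 6 carrier genes on day 1 (left) and day 0 (right) of each panel, with the number of probe sets in brackets. Black lines are the probe sets used, grey lines the others, and the dotted line is the floor of 77.7. All lines of Slc25a5 and Slc25a29 are lower on day 1, and all lines of Slc25a4 and Slc25a20 are higher.

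Both iron carriers, the mitoferrins, which supply iron for haem and iron-sulfur clusters, had lower signals. Slc25a37, the form best known from erythroid cells, had 192.8 on day 1 against 412.2 on day 0 (log2 ratio -1.10, 2.14-fold lower). It was under 2-fold after median centring (-0.98) and with a floor at the 75th percentile (-0.72), and had no value without shared probe sets. Slc25a28, the form of other tissues, had 550.7 on day 1 against 722.7 on day 0 (-0.39). Under hybridisation control scaling both were above 0, at 0.07 and 0.77. Of 4 erythroid markers with a single-symbol probe set 3 were measured, with a median log2 ratio of -0.74, 1 at least 2-fold lower and a summed signal of 278.6 on day 1 and 637.9 on day 0. Of the 3 ratios 2 are bounds, among them the one past 2-fold (Hba-a1, an alpha globin gene). The median was -2.11 with a floor at the 25th percentile and -1.72 with a pseudocount and no floor, each with 2 genes past 2-fold downward. None of the 4 was listed at 0, Epb42 was under the floor on both arrays, and the part of erythroid cells in the Slc25a37 ratio was not tested.

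The phosphate carrier Slc25a3, which supplies phosphate for ATP synthesis, had 9752.9 on day 1 and 9523.8 on day 0, a log2 ratio of 0.03. As deposited it thus stayed near 0. Of the ADP/ATP carriers, which supply the ADP for the same reaction, Slc25a5 was lower (-1.36) and Slc25a4 higher (0.96). Under hybridisation control scaling Slc25a3 was at 1.197, Slc25a5 at -0.19 and Slc25a4 at 2.12. Slc25a20, the carnitine and acylcarnitine carrier, which brings fatty acids in for oxidation, had 1090.9 on day 1 against 376 on day 0. Its log2 ratio as deposited was 1.54 (2.90-fold higher), and its second probe set had 0.70. Its ratio ran from 1.12 to 2.70 over the alternatives tried. Cpt1a, the enzyme that makes the acylcarnitine, was also higher, with 1122.1 on day 1 against 360.5 on day 0 (1.64, with 3 probe sets from 0.90 to 1.64), whereas Cpt2, which reverses the step in the matrix, was at 0.61.

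Of 7 measured carriers of vitamins and cofactors, 1 was at least 2-fold higher (background 10.4%) and 0 lower (background 13.3%). A ratio below 0 was seen in 5 of the 7. Slc25a51, which brings NAD into the matrix, had 2612.9 on day 1 against 1274.1 on day 0 (log2 ratio 1.04, 2.05-fold higher). Its other probe sets had 0.04 and, with a day 0 signal at the floor, at least 0.67, so the size of the difference depended on the probe set. Slc25a17, a peroxisomal carrier of coenzyme A and other nucleotide cofactors, was just short of 2-fold with 579.1 on day 1 against 1142.7 on day 0 (-0.98, 1.97-fold lower), and its second probe set gave a bound of -0.89. Slc25a39, a carrier linked to glutathione import, had 12613.2 on day 1 and 15685.9 on day 0 (-0.31), and its 4 measured probe sets ran from -0.41 to 0.12. Its relative Slc25a40 was at -0.53. The folate carrier Slc25a32 was at -0.44 and the coenzyme A carrier Slc25a42 at -0.52. Slc25a26, which carries S-adenosylmethionine for methylation in the matrix, was at 0.45 with signals of 113.7 on day 1 and 83.3 on day 0, while its other probe set had 183.5 on day 1 and 11.7 on day 0, a bound of at least 1.24. These probe sets had nearly the same mean signal. After median centring, quantile normalization and loess the one with 183.5 on day 1 was the brighter and stood for the gene. The values of 1.36, 1.33 and 1.89 there are thus bounds and belong to a different probe set than 0.45. Under hybridisation control scaling, with the probe set held, the gene was at 1.61. The median of the group was -0.44, or 0.73 under hybridisation control scaling.

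Relatives of the uncoupling proteins lay on both sides of 0, with 1 of 3 at least 2-fold higher (background 10.4%). Slc25a30 had 571 on day 1 against 281.1 on day 0 (log2 ratio 1.02, 2.03-fold higher), and its other measured probe sets had 0.35 and 0.05. Slc25a27 had 125.7 on day 1 and 64.6 on day 0, a bound of at least 0.69, and Slc25a14 was at -0.59. Ucp1, the uncoupling protein of brown fat, listed under its own symbol and so no member, had 384.4 on day 1 against 18.8 on day 0, a bound of at least 2.31 log2. Of 8 measured brown and white adipocyte markers, Ucp1 among them, 2 were at least 2-fold higher and 1 lower, with a summed signal of 40659.5 on day 1 and 87265.7 on day 0 and a median log2 ratio of 0.52. Cidea, which the lactating epithelium also expresses, was the 1 lower gene, with 18455.3 on day 1 and 67825.1 on day 0. The part of adipocytes in the Slc25a20 and Slc25a30 ratios was not tested.

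Of 7 measured members without a settled substrate, 2 were at least 2-fold lower (background 13.3%) and 0 higher (background 10.4%). A ratio below 0 was seen in 5 of the 7. Slc25a53 had 88.7 on day 1 against 325 on day 0 (log2 ratio -1.87, 3.66-fold lower), a day 1 signal barely above the floor, and its other probe set was not measured. Slc25a35 had 118.9 on day 1 against 297 on day 0 (log2 ratio -1.32). Both signals were low, and neither gene reached 2-fold with a floor at the 75th percentile. Slc25a45 was at -0.81 and Slc25a16 at -0.71. Slc25a46, a protein of the outer membrane that acts in mitochondrial dynamics, was at 0.44, and its second probe set at 0.05. Slc25a34 had 24.2 on day 1 and 116.7 on day 0, a bound of -0.59 or lower, and Slc25a48 had 122.1 on day 1 and 18.7 on day 0, a bound of at least 0.65. The median of the group was -0.71, or 0.40 under hybridisation control scaling.

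The 5 members under the floor on both arrays were Slc25a2, Slc25a31, Slc25a41, Slc25a47 and Slc25a54. The highest of their signals was 72.5, on day 0 in Slc25a54, and the next 53.2, on day 1 in Slc25a47. Just above the floor, the brighter array of Slc25a18 had 113.5 and that of Slc25a26 113.7. On either side of the 2-fold line lay Slc25a30 (2.03-fold) and Slc25a51 (2.05-fold) outside it, and Slc25a4 (1.94-fold) and Slc25a17 (1.97-fold) within it.

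**Figure D5:**
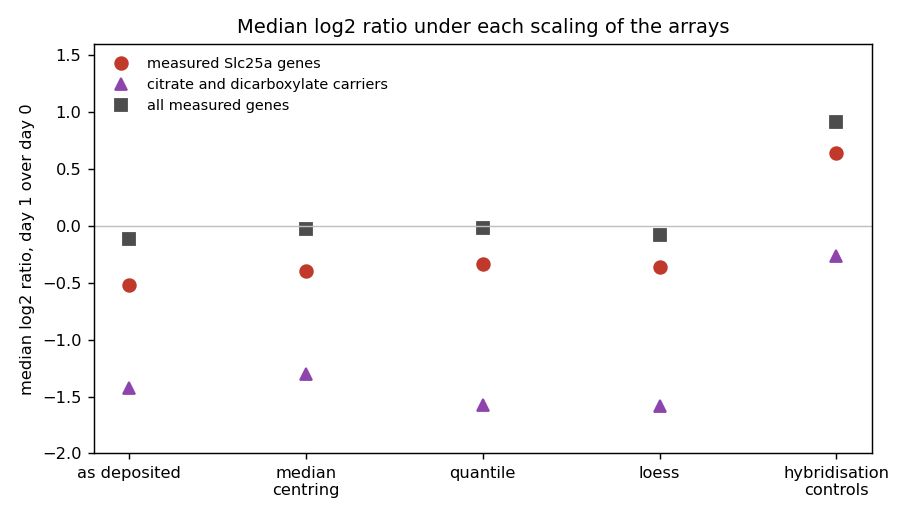
Median log2 ratio of day 1 over day 0 (vertical) under 5 scalings of the arrays (horizontal) for the measured Slc25a genes (circles), the citrate and dicarboxylate carriers (triangles) and all measured genes (squares). The carriers' median lies below that of all genes under each scaling, and it is above 0 (0.65) only under hybridisation control scaling.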

How the data were processed

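RNA pooled from 5 mice a day was hybridised to 1 array a day. The deposited intensity values are signals made by the authors with the statistical algorithms of Microarray Suite 5.0 (MAS 5), per the labels. No source used here gives the target of their scaling. Of 45101 probe sets, 64 were controls, 34945 had 1 gene symbol in the platform annotation, 932 several and 9160 none. Gene names follow RefSeq (GRCm38.p6) by gene identifier, which held 34741 of the 34945, and no build is named for the array. Signals below the floor of 77.7 were raised to it before log2 ratios were taken. Scripts ran in Python 3.11.15 with statsmodels 0.14.6, and the counting of 2-fold differences was tested on simulated data. That simulation planted differences larger than 2-fold in genes well above the floor, with little noise. It checks the code only and does not bear on genes near the floor or the 2-fold line.

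Members, substrate groups and lists were chosen with earlier results of these data known. All 44 members are named, and of the mitochondrial comparison lists each gene at least 2-fold different and a few fixed ones. Alternatives were 4 scalings (median centring, quantile, loess with a span of 0.3, hybridisation controls), floors at the 25th and 75th percentile, a pseudocount of 16 with no floor, the mean of all measured probe sets, no probe sets shared between transcripts, and thresholds of 1.5-fold and 3-fold. Detection calls were not used here. The number of arrays limits the precision.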

Additional observations from a re-analysis of the deposited data

How the results depend on the processing

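No paired analysis was possible because each day had 1 array. With thresholds of 1.5-fold and 3-fold, 16 and 4 carriers were lower and 7 and 1 higher, against 9 and 4 at 2-fold. A floor at the 75th percentile, which raises more signals to the floor, left 5 lower. Hybridisation control scaling gave 1 lower and 14 higher. It moved the median log2 ratio to 0.65 over all carriers, 0.64 for nucleotides, -0.26 for citrate and dicarboxylates, 0.77 for amino acids, 0.42 for metals, 1.197 for phosphate, 2.70 for carnitine, 0.73 for vitamins and cofactors, 1.86 for uncoupling protein relatives and 0.40 for orphans and left the ratios of Slc25a18 and Slc25a34, which are bounds at the floor, where they were. Among carriers and mitochondrial comparison genes at least 2-fold lower as deposited, it put Slc25a37 (0.067), Slc25a38 (0.023), Cs (0.075) and Sfxn2 (0.061) above 0. Most carriers that were lower by less than 2-fold, such as Slc25a11 (0.42), also went above 0. Without shared probe sets Idh2 was at -1.12, from its only other probe set. Under the remaining settings both counts of carriers stayed within 1.5 times, and the 9 lower genes kept their direction wherever they had a value. Among the higher genes, Slc25a30 and Slc25a51 were under 2-fold after quantile normalization, after loess and with the mean of all probe sets, and Slc25a30 also with a pseudocount. Slc25a26 was past 2-fold upward under all 4 other scalings. After median centring, quantile normalization and loess this came with a switch to its other probe set, whose value is a bound. Slc25a4 was past 2-fold upward after median centring, with the hybridisation controls and with the mean of all probe sets. Slc25a17 was past 2-fold downward after quantile normalization and loess. Slc25a37 was under 2-fold after median centring, and Slc25a35, Slc25a37, Slc25a38 and Slc25a53 with a floor at the 75th percentile. With the 25th percentile as the floor, and with a pseudocount, Slc25a18 and Slc25a34 were past 2-fold downward and Slc25a48 upward. That lower floor also put Slc25a2 (-1.11) and Slc25a54 (-1.70) past 2-fold downward and Slc25a47 (1.01) upward. After loess Slc25a27 (1.13) and Slc25a48 (1.06) were past 2-fold upward. Signals near the floor limit Slc25a53, Slc25a35, Slc25a38, Slc25a37, Slc25a24 and Slc25a26.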

Other observations

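The machinery that imports the carriers into mitochondria had few genes past 2-fold and a median above that of all genes (-0.12). Of 22 listed genes of protein import 20 were measured, with a median log2 ratio of 0.19, 1 at least 2-fold lower and 0 higher, against 13.3% and 10.4% of all measured genes. The 1 was Timm8b, a chaperone of the intermembrane space, with 883.3 on day 1 against 1993.8 on day 0 (log2 ratio -1.17). Timm22, which inserts carriers into the inner membrane, was at 0.97, with 565.9 on day 1 against 287.9 on day 0, but its second probe set had -0.60.

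Other mitochondrial transport proteins had a median log2 ratio of 0.36 over 22 measured genes of 28 listed. At least 2-fold higher were 2 (background 10.4%) and at least 2-fold lower 3 (background 13.3%). Besides Ucp1, Cpt1a and Mpc1 these were the sideroflexin genes Sfxn2 (-1.10) and Sfxn5 (a bound of -1.32), which encode a further family of inner membrane transporters. Under hybridisation control scaling 16 of the list were higher (background 46.6%) and 0 lower (background 3.25%), with a median of 1.52. The outer membrane channel genes Vdac1, Vdac2 and Vdac3 were at 0.26, 0.34 and 0.48, and the 5 Vdac1 probe sets ran from -0.32 to 0.52. The carrier relatives Mtch1 and Mtch2, which sit in the outer membrane, were at -0.98 and 0.43, with 362.1 on day 1 against 712.1 on day 0 for Mtch1. Mpc2 and Ucp2 were not analysed here. A probe set shared by Gm16867 and Slc25a37, left out because it has several symbols, had signals of 10 on day 1 and 4.6 on day 0, both under the floor. Other cell type markers had median log2 ratios of 0.51 for macrophages (4 of 10 genes past 2-fold upward, 1 downward), 1.16 for lymphocytes (5 of 7 upward, 1 downward, with 4 of the 7 values bounds) and -0.29 for endothelium (0 of 6 upward, 1 downward). The lymphocyte median was 0.0654 with 1 gene upward under a floor at the 75th percentile, 2.17 with one at the 25th and 1.82 after loess.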
